A study of Gallus gallus with 6 samples.

Results

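The genes described here are C/EBP transcription factors, subunits of the phagocyte oxidase, and genes for a macrophage receptor and lysozyme, measured in chicken DT40 cells, a B cell line, in 2 lines with linker histone H1 genes knocked out and in wild type. All probe sets annotated to 9 listed genes were taken: CEBPB, CEBPA, CEBPD, CEBPG, NCF1C, NCF4, CYBB, CSF1R and LYZ. CEBPD had no probe set in the annotation used here, which left 8 genes of 13009 with a symbol on the array. They had 15 probe sets of their own, and 1 more probe set that CSF1R shares with FLT4 was left out. The 6 arrays fall into 3 groups of 2. K11-5 cells are labelled as H1 complete null, K11 cells as an endogenous H1 knock out, and the third group is wild type DT40. Every culture was growing exponentially and held the pan-caspase inhibitor Z-VAD-FMK, since apoptosis sets in when H1 is missing, per the labels. The sources used here do not give what separates K11 from K11-5, or whether each is 1 clone. Separate cultures are not stated for the 2 arrays of a group, and p-values therefore reflect only array-to-array spread, part or all of which may be technical.

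C/EBP factors are leucine zipper proteins that bind DNA as dimers. C/EBPα and C/EBPβ direct the formation of granulocytes and macrophages, and in mouse B cells their forced expression turns the cells into macrophages. C/EBPβ was also described in chicken, as the factor NF-M of myeloid cells, which acts with Myb on the myeloid genes mim-1 and lysozyme. C/EBPγ has no activation domain of its own and dimerises with other members. The phagocyte oxidase makes superoxide from NADPH and is found in neutrophils and macrophages and, at lower levels, in B cells. In human and mouse its membrane core is CYBB (gp91phox) with CYBA (p22phox), and cytosolic subunits, among them p47phox (NCF1) and p40phox (NCF4), join it together with RAC2. CSF1R is the receptor for the macrophage growth factor CSF1, and LYZ encodes lysozyme, an enzyme that cleaves bacterial cell walls.

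Signals are quantile-normalized linear intensities, and a signal under 11.4, the 95th percentile of 23 control probe sets for sequences that are not chicken genes, is called background. Trimmed means of the deposited signals were 59.5 and 68.4 in K11-5, 56.0 and 48.0 in K11, and 77.7 and 66.7 in wild type. Actin 3' to 5' ratios, a measure of RNA and labelling quality, were 6.29 and 5.28 in K11-5, 9.23 and 9.31 in K11, and 8.10 and 7.15 in wild type. These ratios do not overlap between the groups, and their part in the differences below was not tested. Across probe sets, which are not independent replicates, log2 signals of the paired arrays of a group had r = 0.928 in K11-5, 0.924 in K11 and 0.939 in wild type. All 5 B cell markers on the array were above background in both K11-5 arrays, and 4 were in both arrays of K11 and of wild type. The exception was PAX5. In K11-5 replicate 1 it was above only by the unrounded level, with 11.38 beside a level that rounds to 11.4. PAX5 was under background in K11 replicate 2, with 10.8, and in both wild type arrays. The summed signal of the 5 was 1154 and 251.8 in K11-5, 2898 and 3514 in K11, and 2732 and 3703 in wild type. Most of the sum in K11-5 replicate 1 was BLNK, with 709.4 there and 33.4 in K11-5 replicate 2. The platform annotation names the BLNK probe set SH2D6. The arrays measured RNA of whole cultures, in which fewer cells of a type and less RNA per cell cannot be told apart.

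Of the 15 probe sets, 11 were above background in at least 1 array, and 10, of 7 genes, were bright enough to be tested. In K11-5 against wild type, 1 of these 10 rose, that of CEBPB, and none fell, where 2.6% of all 23063 tested probe sets rose and 2.86% fell. In K11 against wild type, 4 rose, those of CEBPB, CEBPG and both of NCF4, and none fell, against 3.75% higher and 3.96% lower over all tested probe sets. In K11-5 against K11, 3 fell, those of NCF1C and both of NCF4, and none rose, against 1.76% lower and 1.1% higher over all. The median log2 fold change of the 10 was 0.45 in K11-5 against wild type, 0.98 in K11 against wild type and −0.91 in K11-5 against K11, where the medians of all tested probe sets were 0.00, −0.01 and 0.02. The 3 comparisons share arrays and are not independent. A probe set that passed the filter through 1 bright group had to differ between the groups, so these counts and medians describe the 10 and carry no test. They rest on an intensity trend in the variance: without it, no tested member passed in any of the 3 comparisons, while 2, 5 and 3 of the 10 had an unadjusted p under 0.05.

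**Figure D1:**
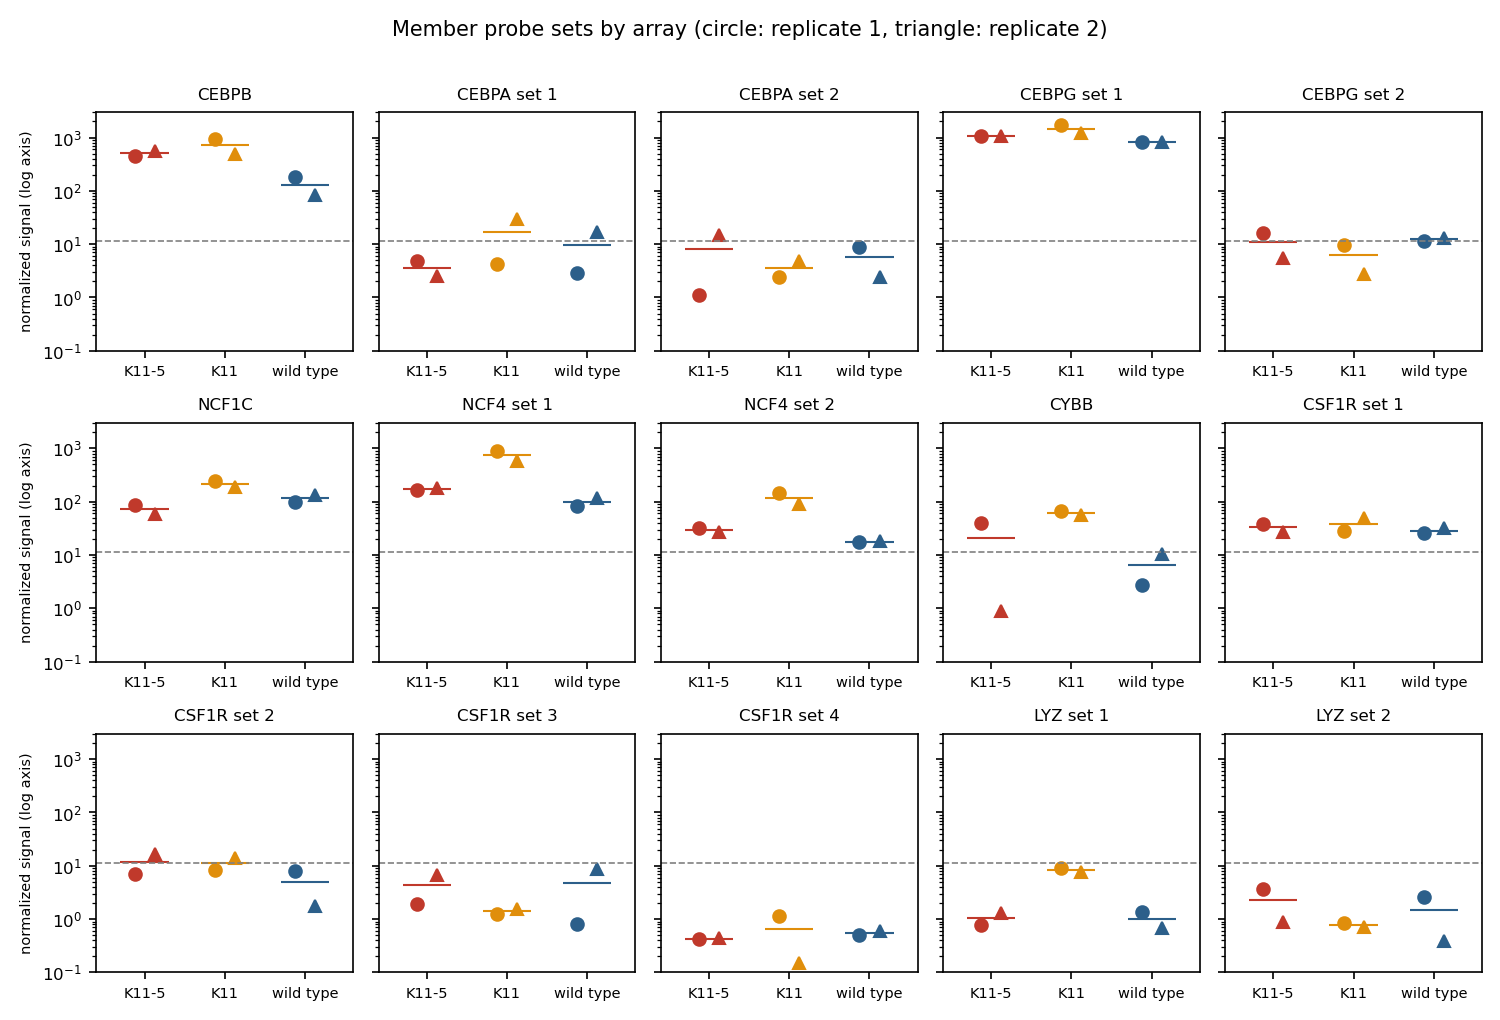
Normalized signal (log axis) of the 15 member probe sets in each array, with K11-5, K11 and wild type from left to right. Circles are replicate 1 and triangles replicate 2, horizontal bars are means of 2 arrays, and the dashed line is the background of 11.4. CEBPB was higher in all 4 arrays of K11-5 and K11 than in wild type, and both NCF4 probe sets were highest in the K11 arrays. Both LYZ probe sets stayed below background.

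CEBPB, which encodes C/EBPβ, was higher in K11-5 and K11 than in wild type. Its signals were 452.5 and 554.9 in K11-5, 954.9 and 494.2 in K11, and 178.8 and 83.8 in wild type. Both K11-5 and both K11 arrays lay above both wild type arrays, while the K11-5 and K11 arrays overlapped. The means were 503.7 ± 72.4 in K11-5, 724.6 ± 325.8 in K11 and 131.3 ± 67.2 in wild type (SD, n = 2 each). CEBPB rose 4.04-fold in K11-5 against wild type, a log2 fold change of 2.01 ± 0.37 (SE) with limma's adjusted p = 0.0137. In K11 against wild type the rise was 5.53-fold, 2.47 ± 0.37 on the log2 scale with adjusted p = 0.00492. K11-5 and K11, neighbours in the order of levels, did not differ beyond their spread, with a log2 difference of −0.45 (95% interval −1.27 to 0.36) and adjusted p = 0.575. The call in K11-5 against wild type was lost without K11-5 replicate 1 (2.15, adjusted p = 0.0576), without K11-5 replicate 2 (1.87, adjusted p = 0.122) and without wild type replicate 2 (1.47, adjusted p = 0.120). The rise in K11 against wild type passed without each single array in turn.

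CEBPG, which encodes C/EBPγ, was highest in K11 by normalized signal. Probe set 1 gave 1087 and 1066 in K11-5, 1715 and 1216 in K11, and 823.1 and 820.7 in wild type, so that the 3 groups did not overlap. On the deposited scale they did: K11 replicate 2, at 935.6, was below both K11-5 arrays (1072 and 1155) and wild type replicate 1 (1043). CEBPG rose 1.76-fold in K11 against wild type, with a log2 fold change of 0.81 ± 0.17 (SE) and adjusted p = 0.0192. The difference of K11-5 from wild type, 0.39 ± 0.17 with adjusted p = 0.245, did not pass, nor did that of K11-5 from K11, −0.42 ± 0.17 with adjusted p = 0.226. Probe set 2 of CEBPG lay around background, with 16.4 and 5.40 in K11-5, 9.58 and 2.71 in K11, and 11.5 and 13.1 in wild type. It went the other way in K11 against wild type, by −0.95 ± 0.70 with adjusted p = 0.487. The CEBPG call depended on the scaling: the log2 fold change in K11 against wild type was 0.23 with adjusted p = 0.548 on the deposited scale, where the median of all probe sets was −0.31. It was also lost without wild type replicate 1 (0.82, adjusted p = 0.136) or replicate 2 (0.81, adjusted p = 0.150). CEBPG passed in K11-5 against K11 without K11 replicate 2 (−0.66, adjusted p = 0.0297).

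CEBPA, which encodes C/EBPα, was dim in every group. Probe set 1 gave 4.78 and 2.51 in K11-5, 4.28 and 29.9 in K11, and 2.87 and 16.8 in wild type. Only K11 replicate 2 and wild type replicate 2 were above background, and the groups overlapped. Against wild type, CEBPA had a log2 fold change of −0.79 ± 0.95 in K11-5 (adjusted p = 0.721) and 0.57 ± 0.95 in K11 (adjusted p = 0.789). Probe set 2 of CEBPA had 1.13 and 14.9 in K11-5, 2.38 and 4.84 in K11, and 8.92 and 2.44 in wild type, and was too dim to be tested. At these signals a difference in CEBPA was not detectable.

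CEBPG and CEBPA lie next to each other on chromosome 11 in RefSeq's annotation of assembly GRCg7b. Over the 258 tested genes of chromosome 11 other than members, the median log2 fold change against wild type was 0.50 for K11-5 and 0.48 for K11. That of K11-5 against K11 was −0.06. Relative to these medians, CEBPG probe set 1 stood at −0.11, 0.33 and −0.36 in the same 3 comparisons. The chromosome median, like CEBPG probe set 1, was higher in both lines than in wild type. It was nearly equal in K11-5 and K11, whereas the normalized signal of CEBPG probe set 1 was highest in K11. On the deposited scale K11 replicate 2, at 935.6, was below both K11-5 arrays (1072 and 1155), and the CEBPG difference of K11-5 from K11 did not pass. The part of the chromosome in the CEBPG result was not tested. On chromosome 20, which holds CEBPB, the medians were 0.04, 0.05 and −0.04, and CEBPB stood 1.97 and 2.42 above them in K11-5 and K11 against wild type. Chromosomes 1 (NCF4, CYBB and LYZ), 13 (CSF1R) and 19 (NCF1C) had medians between −0.02 and 0.07.

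The list of C/EBP factors, dimer partners and Tribbles regulators had 8 tested genes, of which 3 are CEBPB, CEBPG and CEBPA. None of the other 5 passed in any comparison. ATF3, a stress-induced leucine zipper factor, had 198.7 and 180.5 in K11-5, 415.9 and 132.9 in K11, and 127.3 and 48.4 in wild type. Its arrays in both lines lay above both wild type arrays, by 1.25 ± 0.52 in K11-5 and 1.56 ± 0.52 in K11 on the log2 scale, with adjusted p = 0.219 and 0.104. On the deposited scale K11 replicate 2, at 100.7, was below wild type replicate 1, at 158.2. ATF4, the partner of C/EBPγ in the amino acid response, differed from wild type by 0.01 ± 0.13 in K11-5 and 0.30 ± 0.13 in K11, with adjusted p = 0.982 and 0.210. TRIB2, known in mouse and human for the degradation of C/EBPα, separated the K11-5 arrays, with 236.9 and 49.7, against 235.6 and 384.3 in K11 and 233.8 and 248.8 in wild type. A second probe set of CEBPZ, which is no leucine zipper protein despite its name, passed in K11-5 against wild type (1.14, adjusted p = 0.0452), while the one counted here was at −0.09 with adjusted p = 0.846.

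NCF4, the p40phox subunit, was highest in K11. Probe set 1 gave 166.1 and 182.9 in K11-5, 879.8 and 589.2 in K11, and 82.8 and 116.9 in wild type, with no overlap between the groups. NCF4 rose 7.19-fold in K11 against wild type, with a log2 fold change of 2.85 ± 0.25 (SE) and adjusted p = 0.000458. It fell by 2.03 ± 0.25 on the log2 scale in K11-5 against K11, with adjusted p = 0.00484. K11-5 and wild type were neighbours in level, with a difference of 0.81 ± 0.25 that did not pass (adjusted p = 0.0932); it passed without K11 replicate 1 (adjusted p = 0.0474) or replicate 2 (adjusted p = 0.0457).

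A second NCF4 probe set, whose type can match more than 1 transcript, gave the same order. Its signals were 31.5 and 27.0 in K11-5, 142.8 and 90.1 in K11, and 17.8 and 17.9 in wild type. In K11 against wild type the log2 fold change of NCF4 by this probe set was 2.54 ± 0.32 with adjusted p = 0.00223, and in K11-5 against K11 it was −1.89 ± 0.32 with adjusted p = 0.0171. The fall in K11-5 against K11 did not pass by this probe set without K11-5 replicate 2 (adjusted p = 0.130) or without K11 replicate 1 (adjusted p = 0.0662), whereas probe set 1 passed in both. The 2 probe sets read 1 gene in the same arrays and are not separate evidence.

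NCF1C is the chicken gene that RefSeq lists under the synonym NCF1, the p47phox organiser of the oxidase. It gave 87.8 and 59.0 in K11-5, 242.7 and 189.3 in K11, and 97.5 and 133.9 in wild type. The only NCF1C probe set is of the type that can match more than 1 transcript. K11 was the highest group, K11-5 the lowest, and none overlapped. NCF1C fell by 1.55 ± 0.27 on the log2 scale in K11-5 against K11, with adjusted p = 0.0199. Its log2 fold changes against wild type, −0.65 ± 0.27 in K11-5 and 0.90 ± 0.27 in K11, did not pass, with adjusted p = 0.226 and 0.0789. The fall was −1.27 with adjusted p = 0.154 without K11-5 replicate 2, and −1.38 with adjusted p = 0.0711 without K11 replicate 1.

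CYBB, the catalytic subunit, was above background in 3 of the 6 arrays. It gave 40.3 and 0.874 in K11-5, 67.6 and 56.2 in K11, and 2.78 and 10.4 in wild type. Both K11 arrays lay above every other array, and the K11-5 arrays fell on either side of background. CYBB was at least 4.76-fold higher in K11 than in wild type, taking wild type at background with 2 added to both values, but the fit gave 3.05 ± 1.01 (SE) on the log2 scale with adjusted p = 0.103. The same difference had adjusted p = 0.0227 without K11-5 replicate 1 and 0.0134 without K11-5 replicate 2. In K11-5 against K11 the log2 fold change was −2.53 ± 1.01 with adjusted p = 0.225, and −0.59 with adjusted p = 0.715 without K11-5 replicate 2. Without K11-5 replicate 1 it passed, but the K11-5 array left was below background, so that its size is not exact. With 1 array of a group left, here and below, that array was assumed to vary like the other groups.

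**Figure D2:**
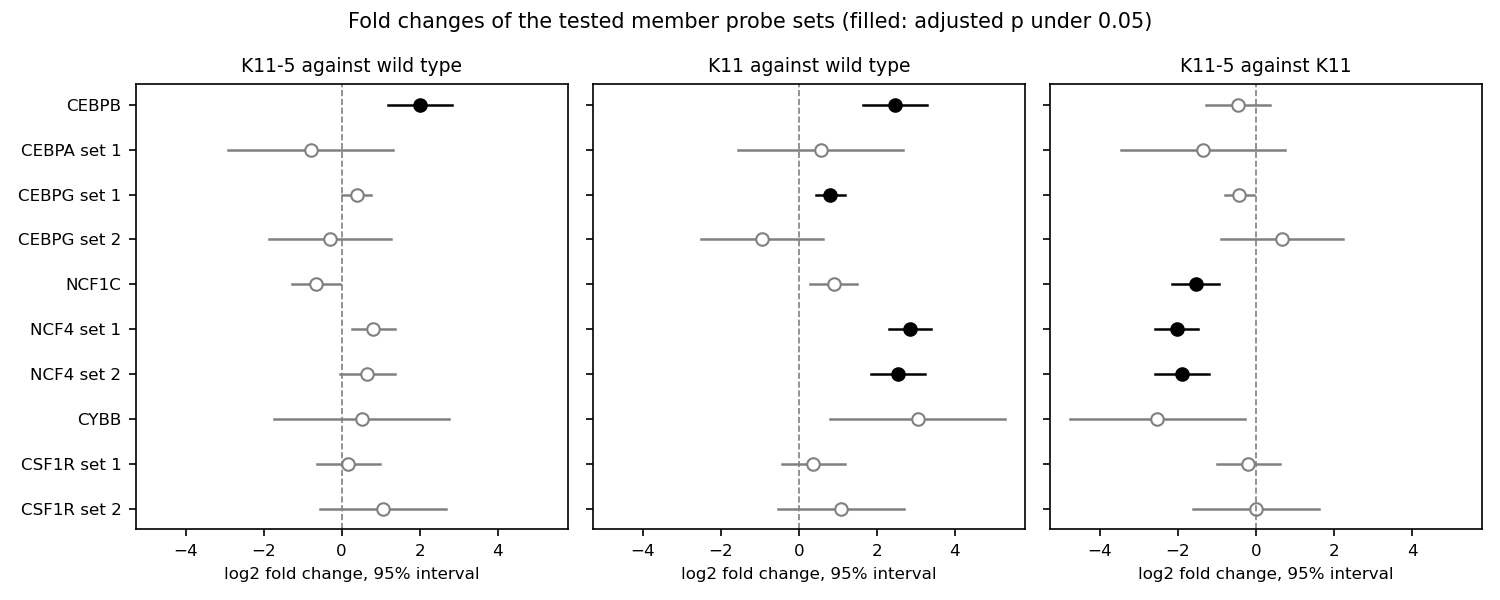
Log2 fold changes (points) with 95% intervals (lines) of the 10 tested member probe sets in the 3 comparisons; filled points had an adjusted p under 0.05. CEBPB stood at 2.01 and 2.47 against wild type in K11-5 and K11, while NCF4 stood at 2.85 in K11 against wild type and at −2.03 in K11-5 against K11. CEBPA and CYBB had the widest intervals of the 10.

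Of the NADPH oxidase list, 13 genes were on the array and 8 were tested. In K11-5 against wild type 1 of the 8 fell and none rose, and in K11 against wild type 2 rose, NCF4 and RAC2, and none fell. In K11-5 against K11, 4 fell, NCF4, NCF1C, RAC2 and HVCN1, and none rose. Over all tested probe sets, 2.86% fell in K11-5 against wild type, 3.75% rose in K11 against wild type and 1.76% fell in K11-5 against K11. The list's median log2 fold change was 0.23, 0.78 and −1.34 in these comparisons, where the median over genes was 0.02, 0.00 and 0.03. The list holds the members NCF4, NCF1C and CYBB. Without them its medians were 0.03, 0.52 and −0.44, and 2 of the other 5 genes fell in K11-5 against K11. RAC2, the GTPase that activates the oxidase in blood cells, gave 282.3 and 214.8 in K11-5, 519.7 and 572.4 in K11, and 186.3 and 312.5 in wild type. RAC2 rose by 1.17 ± 0.25 in K11 against wild type (adjusted p = 0.0218) and fell by 1.14 ± 0.25 in K11-5 against K11 (adjusted p = 0.0447). The rise was lost on the deposited scale and with arrays centred on their medians (0.71, adjusted p = 0.0822). It was also lost without each of K11 replicate 1, K11 replicate 2 and wild type replicate 1. The fall was lost without each of the K11-5 and K11 arrays. It was also lost on the deposited scale (−0.79, adjusted p = 0.0918), with arrays centred on their medians (adjusted p = 0.0743) and with no filter on low values (adjusted p = 0.0592).

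HVCN1, the proton channel that balances the charge moved by the oxidase in phagocytes and B cells, had another pattern. It gave 81.5 and 7.74 in K11-5, 718.2 and 1160 in K11, and 437.1 and 754.9 in wild type. HVCN1 fell by 4.34 ± 0.75 on the log2 scale in K11-5 against wild type (adjusted p = 0.0114), a call that was lost without wild type replicate 2, and by 5.00 ± 0.75 in K11-5 against K11 (adjusted p = 0.0114). Without K11-5 replicate 2 these values were −2.79 and −3.45, and without K11-5 replicate 1 the K11-5 array left was below background. A second probe set of HVCN1 also fell in both comparisons. CYBA, the membrane partner of CYBB, gave 122.7 and 73.0 in K11-5, 124.8 and 133.1 in K11, and 87.6 and 97.8 in wild type. CYBA differed from wild type by 0.03 ± 0.27 on the log2 scale in K11-5 (adjusted p = 0.969). Both K11 arrays lay above the other 4, by a narrow margin, but the log2 fold changes of CYBA, 0.47 ± 0.27 in K11 against wild type (adjusted p = 0.364) and −0.44 ± 0.27 in K11-5 against K11 (adjusted p = 0.453), did not pass. On the deposited scale K11 replicate 2, at 100.8, was below K11-5 replicate 1 (113.4) and both wild type arrays (109.1 and 102.1). CYBA lies on chromosome 11, whose medians against wild type were 0.50 in K11-5 and 0.48 in K11, and their part was not tested. The 4 oxidase genes that fell in K11-5 against K11 moved with the B cell marker sum, 1154 and 251.8 in K11-5 against 2898 and 3514 in K11, and with the sum of the T cell markers, 261.5 and 472.8 in K11-5 against 1250 and 937.1 in K11. Of 6 T cell markers, CD3E, CD4 and LCK were below background in every array. Most of the T cell sum was CD3D, with 213.2 and 397.3 in K11-5 against 1167 and 864.6 in K11. CD8A was also lower in K11-5, with 11.43 and 13.96 against 25.34 and 29.67, while CD247 overlapped. Both sums were also lower in K11-5 than in wild type, with 2732 and 3703 for B cell and 1214 and 1264 for T cell markers in wild type. There the HVCN1 and NCF1C arrays were lower in K11-5. The NCF4 arrays were higher in K11-5 (166.1 and 182.9 against 82.8 and 116.9), and those of RAC2 overlapped. Between K11 and wild type, where NCF4 and RAC2 rose, the B cell and T cell sums overlapped. The erythroid marker sum was 105.7 and 116.3 in K11 against 174.6 and 155.1 in wild type, most of it ALAS2 (77.56 and 88.61 against 137.2 and 128.2). The part of these sums in the results was not tested.

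**Figure D3:**
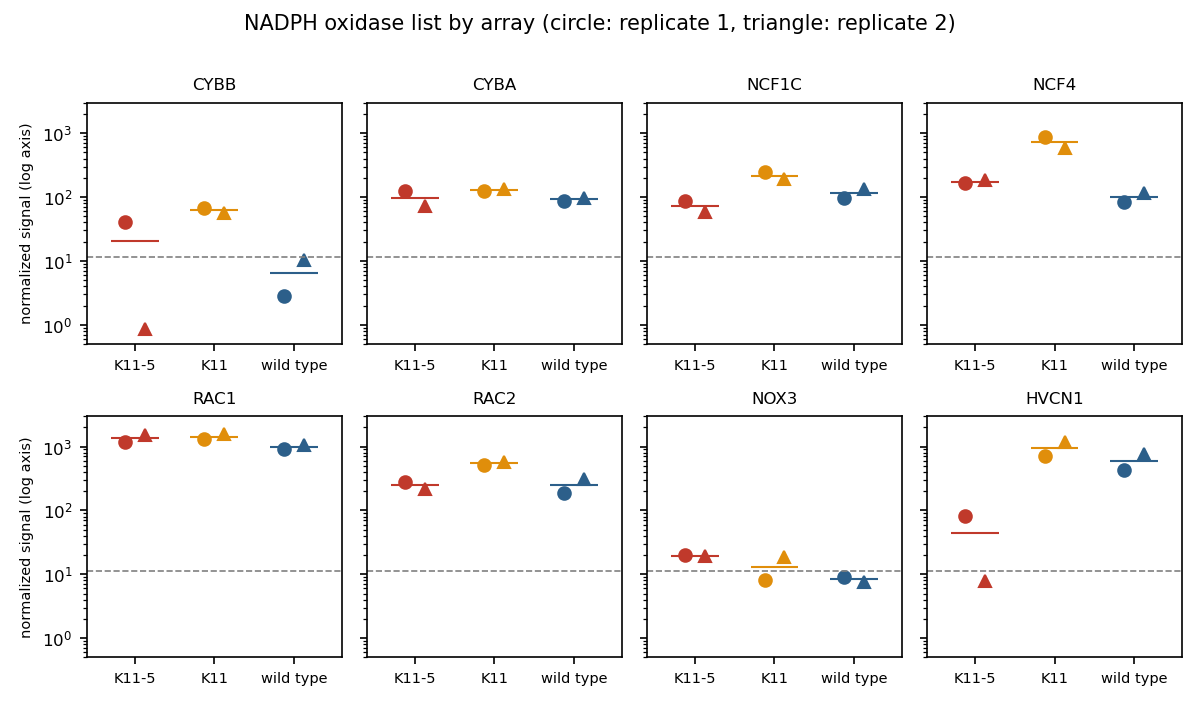
Normalized signal (log axis) of the 8 tested genes of the NADPH oxidase list in each array, K11-5, K11 and wild type from left to right. Circles are replicate 1, triangles replicate 2, bars are means of 2 arrays and the dashed line is the background of 11.4. NCF4, NCF1C, RAC2, CYBB and, by a narrow margin, CYBA were highest in both K11 arrays, and HVCN1 was low in both K11-5 arrays.

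CSF1R, the macrophage growth factor receptor, showed no call. Probe set 1 gave 38.7 and 27.0 in K11-5, 28.0 and 49.9 in K11, and 25.5 and 31.8 in wild type, above background in all 6 arrays and overlapping between all groups. Its type can match more than 1 transcript. The log2 fold change of CSF1R was 0.17 (95% interval −0.64 to 0.99) in K11-5 against wild type (adjusted p = 0.858). For K11 against wild type it was 0.37 (−0.44 to 1.19), with adjusted p = 0.617. Probe set 2 of CSF1R lay around background, with 7.02 and 16.6 in K11-5, 8.39 and 14.3 in K11, and 8.11 and 1.77 in wild type. Its log2 fold changes were 1.07 ± 0.72 in both K11-5 and K11 against wild type and did not pass (adjusted p = 0.485 and 0.443). The other 2 CSF1R probe sets stayed between 0.151 and 8.69, below background.

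LYZ was below background in all 6 arrays by both its probe sets. Probe set 1 gave 0.774 and 1.32 in K11-5, 8.93 and 7.65 in K11, and 1.35 and 0.694 in wild type, so that the K11 arrays were the highest but still dim. Probe set 2 gave 0.383 to 3.73 over the 6 arrays. Neither was tested, and no fold is given for a gene below background in all groups. Of 3 tested genes near LYZ or listed with it, YEATS4, CPSF6 and MDM2, none passed in any comparison. MIM1, the other classic target of C/EBPβ and Myb in chicken, annotated as LECT2 in RefSeq, lay between 0.626 and 3.73 and was also below background in every array.

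Among myeloid receptors and effectors, 34 genes were on the array and 20 were tested. In K11-5 against wild type none passed, in K11 against wild type 2 rose and 1 fell, and in K11-5 against K11 1 rose and 1 fell. The list's medians in these comparisons were 0.19, 0.59 and 0.04 on the log2 scale, where those over genes were 0.02, 0.00 and 0.03, and the shares of all tested probe sets that passed are given above. TLR2A, a receptor for bacterial lipopeptides, was also highest in K11, with 23.7 and 11.04 in K11-5, 102.5 and 109.7 in K11, and 20.6 and 17.1 in wild type. TLR2A rose by 2.38 ± 0.37 in K11 against wild type (adjusted p = 0.00623) and fell by 2.56 ± 0.37 in K11-5 against K11 (adjusted p = 0.0103); the rise was lost without wild type replicate 2 and the fall without K11-5 replicate 2. PTGS2, the inducible cyclooxygenase, was at least 2.32-fold higher in K11 than in wild type (adjusted p = 0.0279). It was above background in the K11 arrays alone and reached the filter only through them, so its call describes these arrays and carries no test. The PTGS2 call was lost with no filter on low values (adjusted p = 0.0668) and without any 1 of the K11 and wild type arrays. CTSD, a lysosomal protease, fell in K11 to 18.3 and 6.38, against 68.5 and 41.1 in wild type (−2.08 ± 0.46, adjusted p = 0.0244), but its other 2 probe sets did not pass. The CTSD call was lost without K11 replicate 2 (−1.47) and without either wild type array, and without K11 replicate 1 the K11 array left was below background. CTSD rose in K11-5 against K11 by 2.23 ± 0.46 (adjusted p = 0.0367), which was lost without each array other than K11 replicate 1.

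The macrophage and granulocyte markers, 7 of 9 on the array, were above background in both arrays for 3 genes in K11-5, 5 in K11 and 3 in wild type. Those counted in K11 alone were CYBB, a member, and MARCO, with 12.6 and 12.3 beside the background of 11.4. MARCO was also above background in K11-5 replicate 2 (15.4) and wild type replicate 2 (12.1). Without CSF1R, CYBB and NCF4, the summed signal of the other 4 was 461.2 and 594.4 in K11-5, 387.9 and 698.7 in K11, and 289.4 and 490.8 in wild type, overlapping between all groups. Nearly all of that sum was SPI1 (PU.1), which B cells also express, and MIM1 was below background in every array. With the members, the sum of all 7 was 706.2 and 805.2 in K11-5, 1363 and 1394 in K11, and 400.4 and 649.8 in wild type, and did not overlap. Other sums that did not overlap with wild type in either line were those of the thrombocyte markers, 99.8 and 120.8 in K11-5, 148.2 and 139.4 in K11, and 70.3 and 97.4 in wild type, and of the fibroblast markers, 53.8 and 74.3 in K11-5, 64.1 and 57.6 in K11, and 41.3 and 41.9 in wild type. These sums move with CEBPB, and their part in the result was not tested. Of the thrombocyte markers, ITGB3 gave 34.6 and 25 in K11-5, 31.7 and 36.4 in K11, and 5.68 and 12.8 in wild type. TUBB1 overlapped between K11-5 and wild type, with 64.6 and 86.4 against 61.8 and 72.1. GP9 was below background in every array other than wild type replicate 2 (12.5). LUM, a defining fibroblast marker, was below background in every array. COL1A1 went the other way, with 0.649 and 7.30 in K11-5, 6.35 and 4.89 in K11, and 20.82 and 13.85 in wild type. The other 2 fibroblast markers scattered, COL1A2 with 5.83 and 49.75 and COL3A1 with 46.78 and 11.59 in the K11-5 arrays.

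Of 14 tested myeloid transcription factors, 3 rose and none fell in K11-5 against wild type, where 2.6% of all tested probe sets rose and 2.86% fell. The median of the 14 was 0.42 in K11-5 against wild type, 0.48 in K11 against wild type and 0.02 in K11-5 against K11 on the log2 scale, beside 0.02, 0.00 and 0.03 over genes. They were JUN, a leucine zipper factor of AP-1 that can pair with C/EBP proteins, ID2, an inhibitor of E proteins, and PPARG, a nuclear receptor of fat cells and macrophages. In K11 against wild type only PPARG rose, and in K11-5 against K11 JUN rose and MITF, a factor of osteoclasts and pigment cells, fell. PPARG was higher in both lines than in wild type, as CEBPB was, with 114.3 and 145.5 in K11-5, 178.4 and 114.4 in K11, and 34.9 and 7.72 in wild type. It rose by 2.79 ± 0.52 in K11-5 (adjusted p = 0.0151) and by 2.94 ± 0.52 in K11 (adjusted p = 0.0105) against wild type, and all 3 of its probe sets passed in both comparisons. Without wild type replicate 2 these values were 1.82 and 1.96, and without wild type replicate 1 the wild type array left was below background. These PPARG calls were lost without either K11-5 array or wild type replicate 2 in K11-5, and without K11 replicate 1 in K11.

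JUN instead separated K11-5 from both other groups, with 534.5 and 651.9 in K11-5, 217.1 and 179.8 in K11, and 164.2 and 89.2 in wild type. Its log2 fold change was 2.27 ± 0.28 in K11-5 against wild type (adjusted p = 0.00223), and this rise passed without each single array in turn. JUN also rose in K11-5 against K11, by 1.57 ± 0.28 (adjusted p = 0.0197), which was lost without either K11-5 array or K11 replicate 2. ID2 rose by 1.63 ± 0.27 in K11-5 against wild type (adjusted p = 0.0100) by 1 of its 3 probe sets, a call lost without K11-5 replicate 2 or wild type replicate 2. MITF fell by 1.16 ± 0.26 in K11-5 against K11 (adjusted p = 0.0491) by 1 of its 4 probe sets, and of the alternatives run that call was kept only with a pseudocount of 16 and with the filter at the 60th percentile; on the deposited scale it was −0.93 with adjusted p = 0.128. SPI1, which encodes PU.1, the partner of C/EBP factors at myeloid promoters, had 446.7 and 550.8 in K11-5, 363.8 and 678.4 in K11, and 282.9 and 467.2 in wild type, and its log2 fold changes of 0.45 ± 0.31 in each line against wild type did not pass (adjusted p = 0.492 in K11-5 and 0.449 in K11).

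C/EBP factors are known in mouse B cells to oppose B lineage genes, some directly through PAX5. Of 13 such genes tested, 5 fell in K11-5 against wild type, EBF1, CD79B, CD72, VPREB3 and BTK, and the same genes with FOXO1 fell in K11-5 against K11. Over all tested probe sets, 2.86% fell in K11-5 against wild type, 3.96% in K11 against wild type and 1.76% in K11-5 against K11. In K11 against wild type VPREB3 fell, by 1.87 ± 0.39 (adjusted p = 0.0186), a call lost without K11 replicate 1 or wild type replicate 2 (−1.28). None of the 13 passed as higher in any comparison, but some had higher values. PAX5 was above wild type by 1.445 ± 0.628 in K11-5 (limma's adjusted p = 0.246) and 1.435 ± 0.628 in K11 (adjusted p = 0.218). Both wild type arrays were below background, so these sizes are not exact. Taking wild type at background with 2 added to both values, PAX5 was at least 1.53-fold higher in K11-5 and 1.51-fold in K11. Only 1 of its 4 probe sets was bright enough to be tested. TCF3 was higher in K11-5, by 0.876 ± 0.356 against wild type (adjusted p = 0.211) and 1.141 ± 0.356 against K11 (adjusted p = 0.128). FOXO1 was 1.17 ± 0.51 higher in K11 than in wild type (adjusted p = 0.214). The median log2 fold change of the 13 was −1.75 in K11-5 against wild type, −0.12 in K11 against wild type and −2.42 in K11-5 against K11, beside 0.02, 0.00 and 0.03 over genes. BLNK and POU2AF1 separated the K11-5 arrays, with 709.4 and 33.4 for BLNK and 425.2 and 2.02 for POU2AF1. By the probe sets counted here neither passed in any comparison. CD79B, a chain of the B cell receptor, gave 163.5 and 21.9 in K11-5, 1327 and 1353 in K11, and 1052 and 1528 in wild type. CD79B fell by 4.34 ± 0.66 in K11-5 against wild type (adjusted p = 0.00638); the value was −5.71 without K11-5 replicate 1 and −2.94 without K11-5 replicate 2, and the call was lost without wild type replicate 2 (adjusted p = 0.0684). The falls of CD72 and BTK in K11-5 against K11 were lost without K11-5 replicate 2, each with adjusted p = 0.0547. EBF1, a B cell identity factor, gave 44.1 and 17.2 in K11-5, 122.4 and 203.4 in K11, and 184.2 and 207.0 in wild type. EBF1 fell by 2.73 ± 0.39 in K11-5 against wild type (adjusted p = 0.00509), a call lost without wild type replicate 2, and the value was −3.36 without K11-5 replicate 1 and −2.10 without K11-5 replicate 2. In K11 against wild type its log2 fold change was −0.30 ± 0.39 (adjusted p = 0.720). PAX5 lay under or near background in several arrays, with 11.4 and 29.1 in K11-5, 30.0 and 10.8 in K11, and 7.72 and 3.76 in wild type. BTK, a kinase of the B cell receptor, fell by 1.75 ± 0.22 in K11-5 against wild type (adjusted p = 0.00290), also lost without wild type replicate 2, and was at −0.01 ± 0.22 in K11 against wild type (adjusted p = 0.983). In K11-5 against K11, EBF1 fell by 2.43 ± 0.39 (adjusted p = 0.0154) and FOXO1, a factor of early B cells, by 2.52 ± 0.51 (adjusted p = 0.0328). The part of C/EBP factors in the falls of B lineage genes was not tested. The EBF1 call was lost without K11-5 replicate 2 (−1.79, adjusted p = 0.0928), and the FOXO1 call without each array other than K11-5 replicate 1; its value was −3.53 without K11-5 replicate 1 and −1.50 without K11-5 replicate 2.

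**Figure D4:**
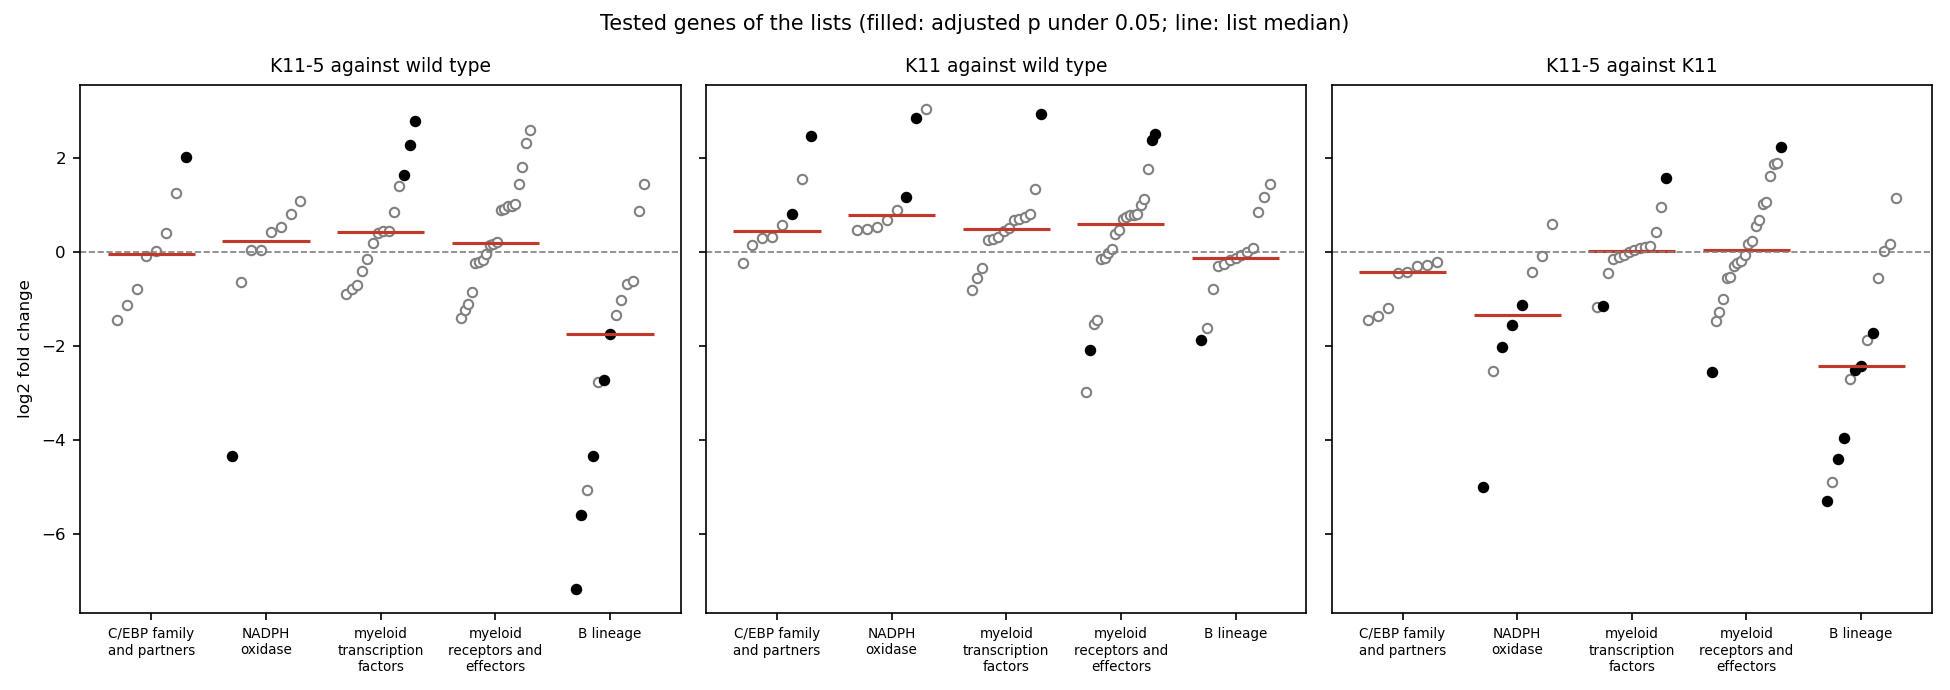
Log2 fold changes of the tested genes of 5 lists in the 3 comparisons, 1 probe set a gene, with filled points for an adjusted p under 0.05 and red lines for list medians. The oxidase median, members included, was 0.78 in K11 against wild type and −1.34 in K11-5 against K11. The B lineage median was −1.75 in K11-5 against wild type and −0.12 in K11 against wild type.

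The probe sets most like CEBPB over the 6 arrays were sought among 10390 tested probe sets with 1 symbol and a range of at least 1 on the log2 scale. The highest were those of UNKL (r = 0.993), MFN1 (r = 0.991), MTHFD2 (r = 0.991), PDCD10 (r = 0.991) and PRKAR1B (r = 0.990). The 6 points share 3 groups of 2, so a gene that separates both lines from wild type scores high, and the coefficients describe these arrays only. MFN1, a mitochondrial fusion protein, rose by 1.18 ± 0.22 in K11-5 (adjusted p = 0.0156) and by 1.64 ± 0.22 in K11 (adjusted p = 0.00334) against wild type, a smaller change than that of CEBPB in each. MTHFD2, a mitochondrial enzyme of folate metabolism, had 1.29 ± 0.38 in K11-5 (adjusted p = 0.0804) and 1.54 ± 0.38 in K11 (adjusted p = 0.0355) against wild type. None of the 5 passed in K11-5 against K11. The 5 were picked for their likeness to CEBPB in these same arrays, so their calls in the 3 comparisons also describe these arrays and carry no test.

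**Figure D5:**
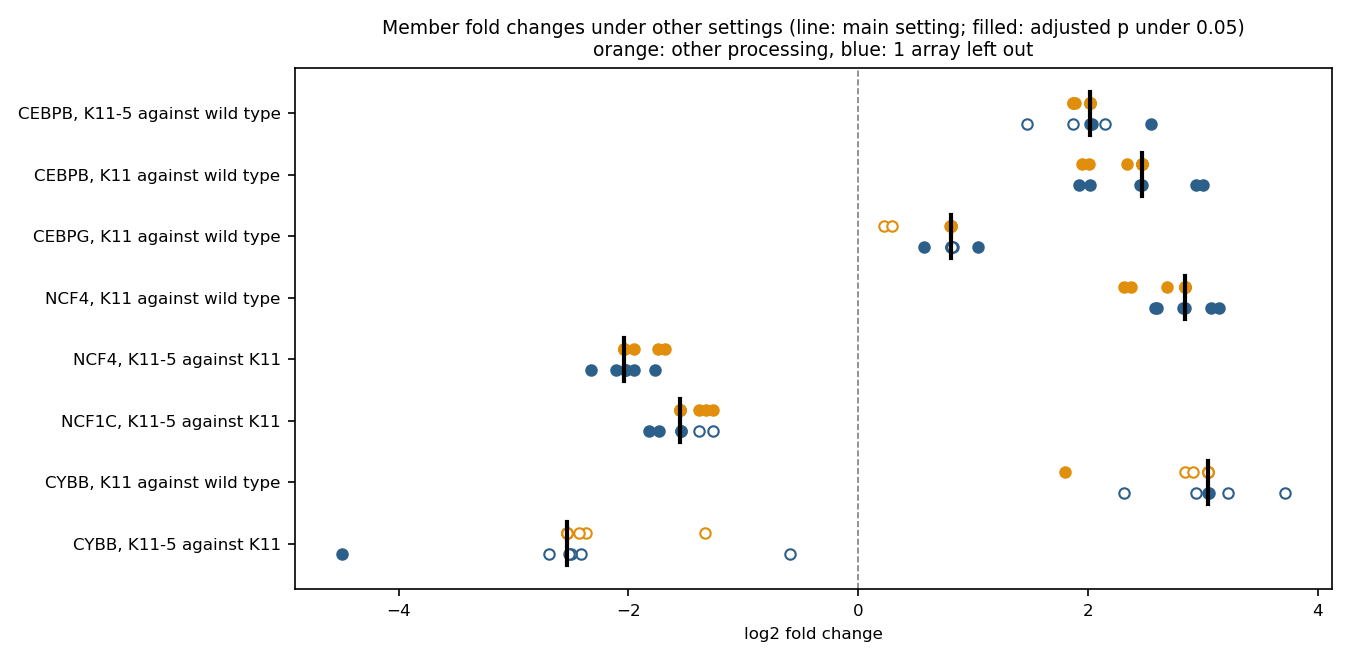
Log2 fold changes of 5 member genes under other processing (orange) and with 1 array left out (blue); vertical lines are the values given in the text and filled points had an adjusted p under 0.05. CEBPB and NCF4 against wild type in K11 stayed filled with any array left out, CEBPB in K11-5 against wild type ran between 1.47 and 2.55, and CYBB in K11-5 against K11 was the most spread of those drawn, its lowest point resting on 1 K11-5 array below background.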

How the data were processed

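Gene expression was measured on 6 single-colour Affymetrix chicken arrays of DT40 total RNA, 2 per group. The authors deposited linear probe set intensity values, made with GCOS per the submitters' processing notes; the sources used here do not give its algorithm or scaling. The 96 control probe sets were left out of 38535, and the other 38439 were quantile-normalized and transformed as log2(intensity + 2), which understates changes of dim genes. The test covered the 23063 probe sets whose mean log2 value reached the 40th percentile (signal 5.83). With limma 3.58.1 (R 4.3.3), group means were fitted over all 6 arrays (lmFit, eBayes with an intensity trend, 3 residual and 6.96 prior degrees of freedom). Adjusted p-values are Benjamini-Hochberg over all 23063, with a threshold of 0.05. The number of arrays limits the precision.

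Genes were named from the platform annotation, where 27168 probe sets had 1 symbol, 177 had several and 11094 had none. Of those with 1, 26853 matched RefSeq genes of GRCg7b, used for synonyms, chromosomes and gene order only. Named were all members, genes among the up to 4 of smallest p per list and comparison, and the 5 probe sets most like CEBPB. Not all genes of smallest p were described. IRF8, RUNX1, MAF, CTSS, CTSB, IL8L1, C1QA, EXFABP, RAC1 and BATF were left out, and none of these passed. Other genes and probe sets were chosen after their values were seen. In the lists the probe set of highest mean stood for a gene. Members and lists were chosen with earlier results of these data known. The background level was also set after the data were seen. The fit was also run on data simulated from its own variances, which cannot check the intensity trend or the spread between arrays. Same-numbered arrays of different groups had deviations correlated at −0.03 to 0.06, so the numbers were not taken as pairs. Alternatives changed the scaling, pseudocount, filter, variance model, replicate block and arrays. No sequences were used here.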

Additional observations from a re-analysis of the deposited data

How the results depend on the processing

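Under 14 alternatives, 364 of 405 recomputed member log2 fold changes kept their direction and side of the threshold, 19 no longer passed, 8 newly passed and 14 changed sign; none of the 14 had passed. Without the intensity trend the number of member probe sets that passed was 0 in each comparison, where it had been 1 in K11-5 against wild type, 4 in K11 against wild type and 3 in K11-5 against K11; 2, 5 and 3 of these 10 had an unadjusted p under 0.05 in limma. Over all tested probe sets that setting called 16 higher and 11 lower, 9 and 12, and 0 and 0 in the same order. With 1 array left out, the member count ran from 0 to 2 in K11-5 against wild type (0 without either K11-5 array or wild type replicate 2, 2 without either K11 array), from 3 to 5 in K11 against wild type, and from 1 to 4 in K11-5 against K11 (1 without K11-5 replicate 2 or K11 replicate 1). On the deposited scale, all probe sets split into 305 higher and 809 lower in K11-5 against wild type, where the normalized values gave 600 and 660. The same split was 316 and 2615 in K11 against wild type (865 and 913 normalized) and 783 and 248 in K11-5 against K11 (254 and 407 normalized). With arrays centred on their medians it was 445 and 1150, 462 and 2973, and 923 and 323. The member counts under these scalings were 1, 3 and 3, the lost call being CEBPG in K11 against wild type (0.23 and 0.29).

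CYBB in K11 against wild type passed with a pseudocount of 16 (adjusted p = 0.0299) and with only the groups compared (0.0105). The sign changed with an array left out for the results that follow, with their lowest and highest values over such fits. CEBPA reached the filter in only 11 of the 14 alternatives, and its range does not cover every fit with an array left out. CYBB in K11-5 against wild type ran from −1.432 to 2.459, CEBPG probe set 2 in the same comparison from −0.946 to 0.369, and CEBPA in K11 against wild type from −0.412 to 1.751. CEBPB in K11-5 against K11 ran from −0.927 to 0.019. CSF1R probe set 1 ran from −0.068 to 0.418 for K11-5 against wild type, from −0.022 to 0.771 for K11 against wild type and from −0.595 to 0.200 for K11-5 against K11. CSF1R probe set 2 in K11-5 against K11, at −0.004 in the report's setting, was 0.075 on the deposited scale, 0.012 with median centring, 0.013 with a pseudocount of 16, and −0.526 to 0.521 with an array left out. The fit with a replicate block gave the same member counts, 1, 4 and 3, and the numbers do not pair the arrays; of the calls given for other listed genes, MITF in K11-5 against K11 was lost with it. Dim signal limits CEBPA, LYZ, the second probe sets of CEBPG and CSF1R, and CYBB outside K11.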

Other observations

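The genes on either side of the members, in the gene order of GRCg7b and chosen after the data were seen, were read in the same fit. Beside CEBPB, PTPN1, a tyrosine phosphatase, differed from wild type by 0.29 ± 0.22 (log2 fold change ± SE) in K11-5, with adjusted p = 0.536, and by 0.55 ± 0.22 in K11, with adjusted p = 0.17. TMEM189, on its other side, had 0.12 ± 0.21 in K11-5 and 0.27 ± 0.21 in K11 (adjusted p = 0.825 and 0.499), against 2.01 and 2.47 for CEBPB. PEPD, a dipeptidase beyond CEBPG, had log2 fold changes against wild type of 0.36 ± 0.24 in K11-5 (adjusted p = 0.478) and 0.03 ± 0.24 in K11 (adjusted p = 0.959). Neither neighbour of NCF4, CRCBL and PVALB, nor of NCF1C, RCC1L and GTF2I, passed in any of the 3 comparisons. CRCBL gave 1.65 and 10.46 in K11-5, 7.77 and 14.12 in K11, and 16.08 and 11.58 in wild type. PVALB gave 5.23 and 10.59, 14.58 and 4.22, and 3.69 and 5.95 in the same order. Both lay around or below background, so the lack of a call does not show that they were unchanged. DYNLT3, a dynein light chain gene beside CYBB, passed in K11-5 against K11 and ran opposite to CYBB there. Its signals were 220.8 and 228.1 in K11-5, against 95.6 and 117.8 in K11, a rise of 1.07 ± 0.21 on the log2 scale (adjusted p = 0.0302). XK, on the other side of CYBB, had 7.23 and 7.22 in K11-5, 14.6 and 16.4 in K11, and 6.71 and 6.52 in wild type, so that, as for CYBB, both K11 arrays were the highest. Its log2 fold changes, 1.02 ± 0.55 in K11 against wild type (adjusted p = 0.322) and −0.92 ± 0.55 in K11-5 against K11 (adjusted p = 0.429), did not pass.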
